A study of Mus musculus with 24 samples.

Results

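The genes described here are the 37 carried by the mouse mitochondrial DNA, of 38920 genes in the deposited tables. They were taken by the prefix mt- of the gene symbol and comprise 13 protein genes, 2 ribosomal RNA (rRNA) genes and 22 transfer RNA (tRNA) genes. RNA was sequenced from neurospheres, floating cultures of neural stem and progenitor cells, started from fetal mouse cerebral cortex or hypothalamus at embryonic day 14.5. At passage 3 the cultures were exposed for 4 h to 100 nM dexamethasone, a synthetic glucocorticoid, or to the ethanol vehicle, and total RNA extracted with Trizol went into a stranded total RNA library. The 24 samples formed 8 groups of 3: female cortex, male cortex, female hypothalamus and male hypothalamus, each with vehicle or with dexamethasone. The labels as read here name no strain, genotype or transgene. The labels called the 3 samples of a group biological replicates without saying whether each was 1 embryo, 1 litter or a pool, so p-values measure the spread between these samples. The comparisons address how the glucocorticoid response depends on region and sex.

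Mitochondrial DNA is a small circle that is transcribed from both strands as long precursor RNAs, and tRNAs that lie between the other genes mark the places where the precursors are cut. Its protein genes encode core subunits of the respiratory chain and of ATP synthase, and its rRNAs and tRNAs serve the translation of those proteins inside the organelle. All factors that transcribe, cut, protect and translate these RNAs are encoded in the nucleus. Neural stem cells are known to lean on glycolysis and to raise oxidative phosphorylation when they differentiate. In GRCm38, 9 of the 37 genes lie on the minus strand of the reference, namely mt-Nd6 and the tRNA genes mt-Tq, mt-Ta, mt-Tn, mt-Tc, mt-Ty, mt-Ts1, mt-Te and mt-Tp, and the other genes lie on the plus strand.

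By ratio of reads, the 4 largest differences between the regions were those of minus-strand tRNAs, mt-Ts1, mt-Ty, mt-Tc and mt-Tn, whose gene sequences are shown for that reason. Beside them stand mt-Te, a further minus-strand tRNA gene high in hypothalamus, and mt-Ta, an adjoining minus-strand tRNA gene that differed far less. These sequences were read from the GENCODE M21 transcripts of GRCm38, 5′ to 3′ in the sense of the gene, with the anticodon in capitals. mt-Ts1 (serine, chrM:6870-6938), mt-Ty (tyrosine, chrM:5260-5326), mt-Tc (cysteine, chrM:5192-5257), mt-Tn (asparagine, chrM:5089-5159), mt-Te (glutamate, chrM:14071-14139) and mt-Ta (alanine, chrM:5018-5086) are all on the minus strand.
mt-Ts1: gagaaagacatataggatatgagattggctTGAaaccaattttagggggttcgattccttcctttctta
mt-Ty: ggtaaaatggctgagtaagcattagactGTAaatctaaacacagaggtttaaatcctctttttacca
mt-Tc: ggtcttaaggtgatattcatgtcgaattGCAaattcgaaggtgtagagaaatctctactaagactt
mt-Tn: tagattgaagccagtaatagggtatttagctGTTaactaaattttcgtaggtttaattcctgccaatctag
mt-Te: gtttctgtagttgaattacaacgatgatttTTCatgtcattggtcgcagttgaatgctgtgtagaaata
mt-Ta: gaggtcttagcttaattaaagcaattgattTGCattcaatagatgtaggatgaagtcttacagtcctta
mt-Ta, mt-Tn, mt-Tc and mt-Ty stand next to each other in that order between mt-Nd2 and mt-Co1. mt-Ts1 follows the far end of mt-Co1 and shares 3 bases with it, and mt-Te adjoins mt-Nd6. The mt tRNA genes were 59 to 75 bases long, so the small read numbers below come partly from short targets.

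Libraries held 16.39 to 20.94 M reads in genes in cortex and 16.04 to 25.49 M in hypothalamus (M, 1000000). In male hypothalamus, both libraries of replicate 2 carried 26.4 and 30.1 reads per 1000000 (RPM) of Xist, the RNA made from the inactive X chromosome, against 0.163 to 0.506 RPM in the other male hypothalamus libraries and 306 to 590 RPM in female hypothalamus. These libraries therefore went partly against their sex label, and the male hypothalamus calls and the leading region differences are also given without replicate 2. Progenitor markers were abundant in every library, with summed levels of 5450 to 7186 RPM in cortex and 4345 to 5659 RPM in hypothalamus for 6 genes including Nes and Sox2. The microglial markers C1qa and C1qb were at 0 reads in all libraries, and the 6 microglial markers together reached at most 0.63 RPM. In bulk RNA, less RNA per cell, fewer mitochondria per cell and fewer cells of a type cannot be told apart.

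One protein gene gave no value. mt-Nd4l, a small complex I subunit, was listed at 0 in all 24 libraries, and 98.8% of its 50-base windows also occur in the transcript of the nuclear entry Gm10222, which was likewise at 0 in all of them. Nuclear copies of mitochondrial DNA share windows with other protein genes too, from 100% for mt-Co2 and 99.9% for mt-Co3 through 99.5% for mt-Atp6, 98.0% for mt-Nd3, 62.2% for mt-Nd4 and 51.1% for mt-Co1 to 8.19% for mt-Nd2 and 7.61% for mt-Nd5. mt-Nd1, mt-Nd6, mt-Cytb, mt-Atp8, mt-Rnr1 and all tRNA genes shared none with another annotated transcript. Only annotated transcripts were compared. Whether these genes, mt-Ts1 and mt-Atp8 among them, have nuclear copies outside annotated transcripts was not tested. How reads with several placements were counted, and whether strand was used, is unknown here, so the values of genes with shared windows are uncertain, and sense and antisense reads of a gene cannot be told apart. mt-Nd5 and mt-Nd6 overlap on opposite strands, by 14 bases.

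Levels per length spread widely among the protein genes. In male cortex vehicle libraries, complex IV was highest: mt-Co3 stood at 6463 ± 253 RPM per kb (SD, n = 3), mt-Co1 at 4799 ± 265 and mt-Co2 at 3641 ± 190. The ATP synthase gene mt-Atp6 (2837 ± 109), the complex I gene mt-Nd3 (1736 ± 102), the complex III gene mt-Cytb (1408 ± 69.1), mt-Nd1 (1351 ± 48.9) and the other ATP synthase gene mt-Atp8 (696 ± 127) followed. Of these neighbours, the mt-Cytb and mt-Nd1 means lay closer than the SD of mt-Cytb. The remaining complex I genes were far lower per kb, with mt-Nd4 at 231 ± 8.60, mt-Nd2 at 185 ± 8.50, mt-Nd5 at 111 ± 7.23 and mt-Nd6 at 70.6 ± 11.8. Female cortex vehicle libraries gave the same order of means with wider spread, such as 7347 ± 1618 RPM per kb for mt-Co3 and 68.3 ± 9.01 for mt-Nd6.

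**Figure D1:**
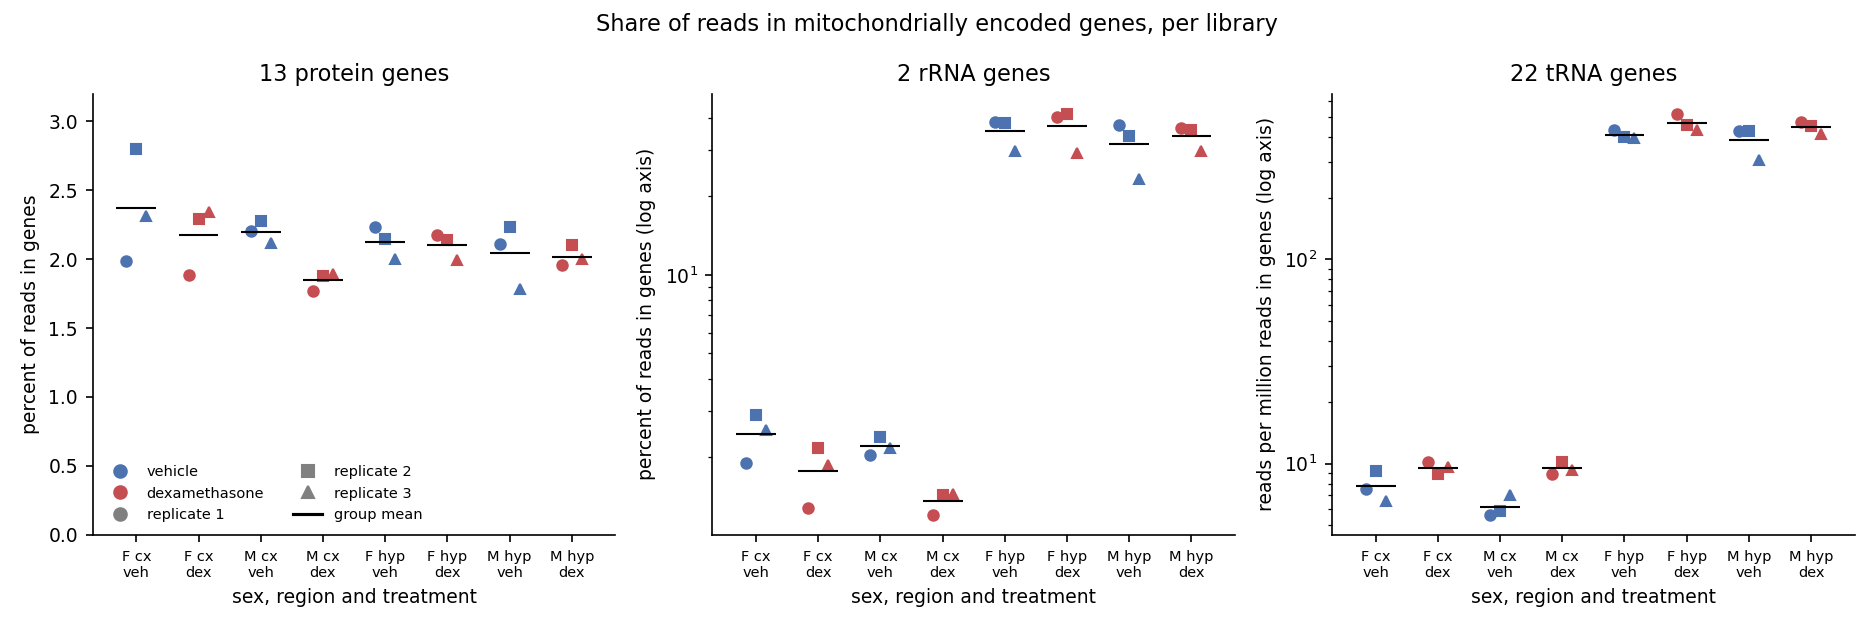
Share of the reads in genes that fell on the mt protein, rRNA and tRNA genes in each of the 24 libraries (F, female; M, male; cx, cortex; hyp, hypothalamus; veh, vehicle; dex, dexamethasone). Points are libraries, their shape the replicate number and the line the group mean; the rRNA and tRNA axes are logarithmic. Protein shares lay between 1.77% and 2.80% throughout, whereas every hypothalamus library was above every cortex library for rRNA and tRNA.

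Taken by class, dexamethasone moved the rRNA and tRNA shares of cortex in opposite directions. The mt rRNA share of the cortex libraries was 2.33% ± 0.368 (SD, n = 6) with vehicle and 1.56% ± 0.374 with dexamethasone, a difference of -0.765 percentage points (two-sided exact permutation test within sex, p = 0.01), and it was lower in 6 of 6 same-number pairs. In female cortex the vehicle values of 1.91%, 2.91% and 2.54% overlapped the dexamethasone values of 1.27%, 2.16% and 1.87%, and in male cortex 2.04%, 2.39% and 2.18% stood apart from 1.20%, 1.43% and 1.44%. The tRNA share of cortex rose from 6.98 ± 1.30 to 9.54 ± 0.573 reads per 1000000 reads in genes (exact permutation p = 0.01, higher in 5 of 6 pairs), on totals of 99 to 213 tRNA reads per library. By an exact sign-flip test over the 6 pairs this rise did not pass (p = 0.0625). The replicate numbers did not pair libraries in male cortex, so the pairs of that sex in these counts and in this test are arbitrary. The protein share was 2.28% ± 0.280 with vehicle and 2.01% ± 0.243 with dexamethasone, which did not pass (exact permutation p = 0.08).

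In hypothalamus the shares of protein and rRNA genes did not differ beyond the spread between libraries. Protein genes took 2.08% ± 0.171 (SD, n = 6) with vehicle and 2.06% ± 0.0893 with dexamethasone (exact permutation p = 0.775), and rRNA genes 33.5% ± 5.95 and 35.5% ± 5.14 (exact permutation p = 0.54). The tRNA share rose from 396 ± 46.3 to 456 ± 37.0 reads per 1000000 reads in genes and was higher in 6 of 6 pairs (exact permutation p = 0.03). The exact permutation test did not pass with the rRNA-like entries (mt-Rnr1, mt-Rnr2, Gm26924 and Lars2) out of the totals (p = 0.085), and by sex it could not pass, since 3 libraries against 3 allow no two-sided p under 0.1. Without replicate 2 of each group the tRNA difference in hypothalamus was 68.0 reads per 1000000 reads in genes (exact permutation p = 0.222).

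Male cortex gave the clearest gene-by-gene response. Of the 37 genes, 16 passed the filter of 1 RPM in at least 3 of the 6 libraries, and limma called 11 of them at an adjusted p under 0.05, beside 47.6% of all 13205 genes tested there. Among the 16, 9 fell, beside 20.9% of all genes tested, and 2 rose, beside 26.7%. The median log2 change was -0.34 over the 12 tested protein genes and 0.04 over all genes. In 12 of the 16 the vehicle and dexamethasone libraries were fully separate, as in 56.9% of all genes tested. By edgeR, 10 protein genes and both rRNAs were lower and mt-Nd6 and mt-Tp higher, where 44.5% of all genes were called, and DESeq2 called 32.1% of all genes.

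Complex I, which takes electrons from NADH, held both the largest falls and a rise. mt-Nd4, a proton-pumping membrane subunit, measured 328, 322 and 305 RPM in the male cortex vehicle libraries and 141, 137 and 153 RPM with dexamethasone. The groups stood far apart, and the log2 change was -1.14 ± 0.06 (SE; limma, adjusted p = 3.25e-07). mt-Nd2, another membrane subunit of the pump, went from 187, 202 and 186 RPM to 94.6, 96.3 and 102 RPM, with no overlap and a log2 change of -0.97 ± 0.05 (adjusted p = 7.44e-07). For mt-Nd5, the outermost of the pumping subunits, vehicle values of 190, 216 and 201 RPM lay above the 141, 151 and 156 RPM with dexamethasone (log2 change -0.44 ± 0.06, adjusted p = 0.000305). mt-Nd1, which lies near the quinone site, fell by less, from 1312, 1327 and 1240 to 972, 984 and 999 RPM (log2 change -0.39 ± 0.05, adjusted p = 0.000195). mt-Nd3 was not called, at 611, 636 and 566 RPM against 566, 544 and 540 (log2 change -0.13 ± 0.06, adjusted p = 0.0712). It was called lower by edgeR, at an adjusted p of 0.0265.

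mt-Nd6 went the other way. This complex I gene, the protein gene of the minus strand, measured 34.9, 43.5 and 31.6 RPM with vehicle and 56.4, 49.6 and 54.8 RPM with dexamethasone in male cortex. All 3 dexamethasone libraries were above all vehicle libraries, and the log2 change was 0.55 ± 0.11 (limma, adjusted p = 0.00205). mt-Nd5, its neighbour on the opposite strand, fell in the same libraries. In the authors' deposited table mt-Nd6 had a log2 fold change of 0.55 in male cortex with an adjusted p of 0.124.

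**Figure D2:**
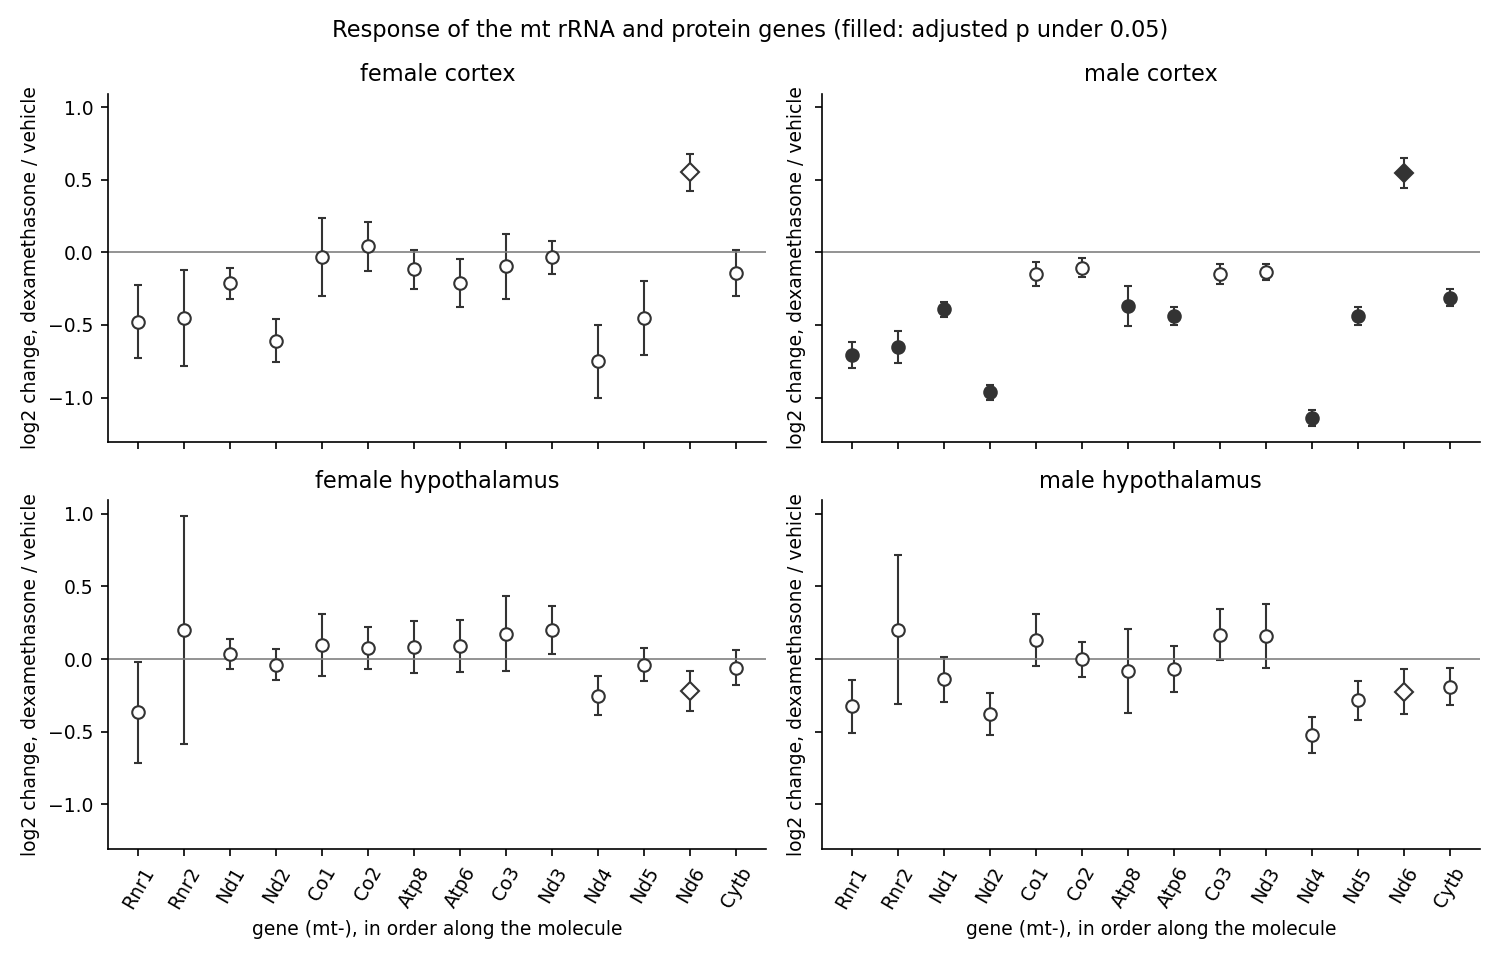
Log2 change between dexamethasone and vehicle libraries (y axis) of the mt rRNA and protein genes that passed the filter, in the order of the genes on the molecule (x axis), for the 4 comparisons of 3 against 3 libraries. Points are limma estimates with their SE, filled where the adjusted p was under 0.05, and the diamond is mt-Nd6. In both cortex panels mt-Nd2 and mt-Nd4 are the lowest protein genes and mt-Nd6 the highest; in hypothalamus no point is filled.

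The other complexes and the rRNAs of male cortex moved less than mt-Nd2 and mt-Nd4 or did not pass. mt-Cytb, the mitochondrially encoded subunit of complex III, fell from 1657, 1656 and 1519 to 1256, 1285 and 1348 RPM (log2 change -0.31 ± 0.06, adjusted p = 0.0017). In ATP synthase, mt-Atp6, part of the proton channel, fell by 0.44 ± 0.06 on the log2 scale without overlap (adjusted p = 0.000245). mt-Atp8 changed by -0.37 ± 0.14 with overlapping groups, at an adjusted p of 0.0499 that DESeq2 put at 0.141. None of the 3 genes of complex IV, which hands electrons to oxygen, was called by limma: log2 changes were -0.15 ± 0.08 for mt-Co1, -0.11 ± 0.07 for mt-Co2 and -0.15 ± 0.07 for mt-Co3. mt-Co1 and mt-Co3 were called lower by edgeR (adjusted p = 0.0275 and 0.0145) and by DESeq2.

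The male cortex rRNAs fell together, mt-Rnr1, the RNA of the small ribosomal subunit, from 1894, 2193 and 1892 to 1073, 1280 and 1310 RPM (log2 change -0.71 ± 0.09, adjusted p = 0.000143). mt-Rnr2, that of the large subunit, went from 17773, 21223 and 19058 to 10804, 12991 and 13120 RPM, again without overlap (log2 change -0.65 ± 0.11, adjusted p = 0.000926). Of the 22 tRNA genes only mt-Tm (methionine) and mt-Tp (proline) passed the filter. mt-Tp, on the minus strand, rose from 1.26, 1.69 and 2.27 to 3.05, 4.09 and 3.94 RPM (log2 change of the value plus 1, 0.78 ± 0.16, adjusted p = 0.00272), and mt-Tm changed by 0.15 ± 0.24 (adjusted p = 0.63). The authors' deposited table listed 5 mt genes under 0.05 in male cortex, mt-Nd2, mt-Nd4, mt-Atp6, mt-Tp and mt-Tn. The last, mt-Tn, had 0 to 13 reads per cortex library and did not pass the filter for limma. By DESeq2 its log2 change was 2.62 ± 1.09, just short of the threshold (adjusted p = 0.0508).

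**Figure D3:**
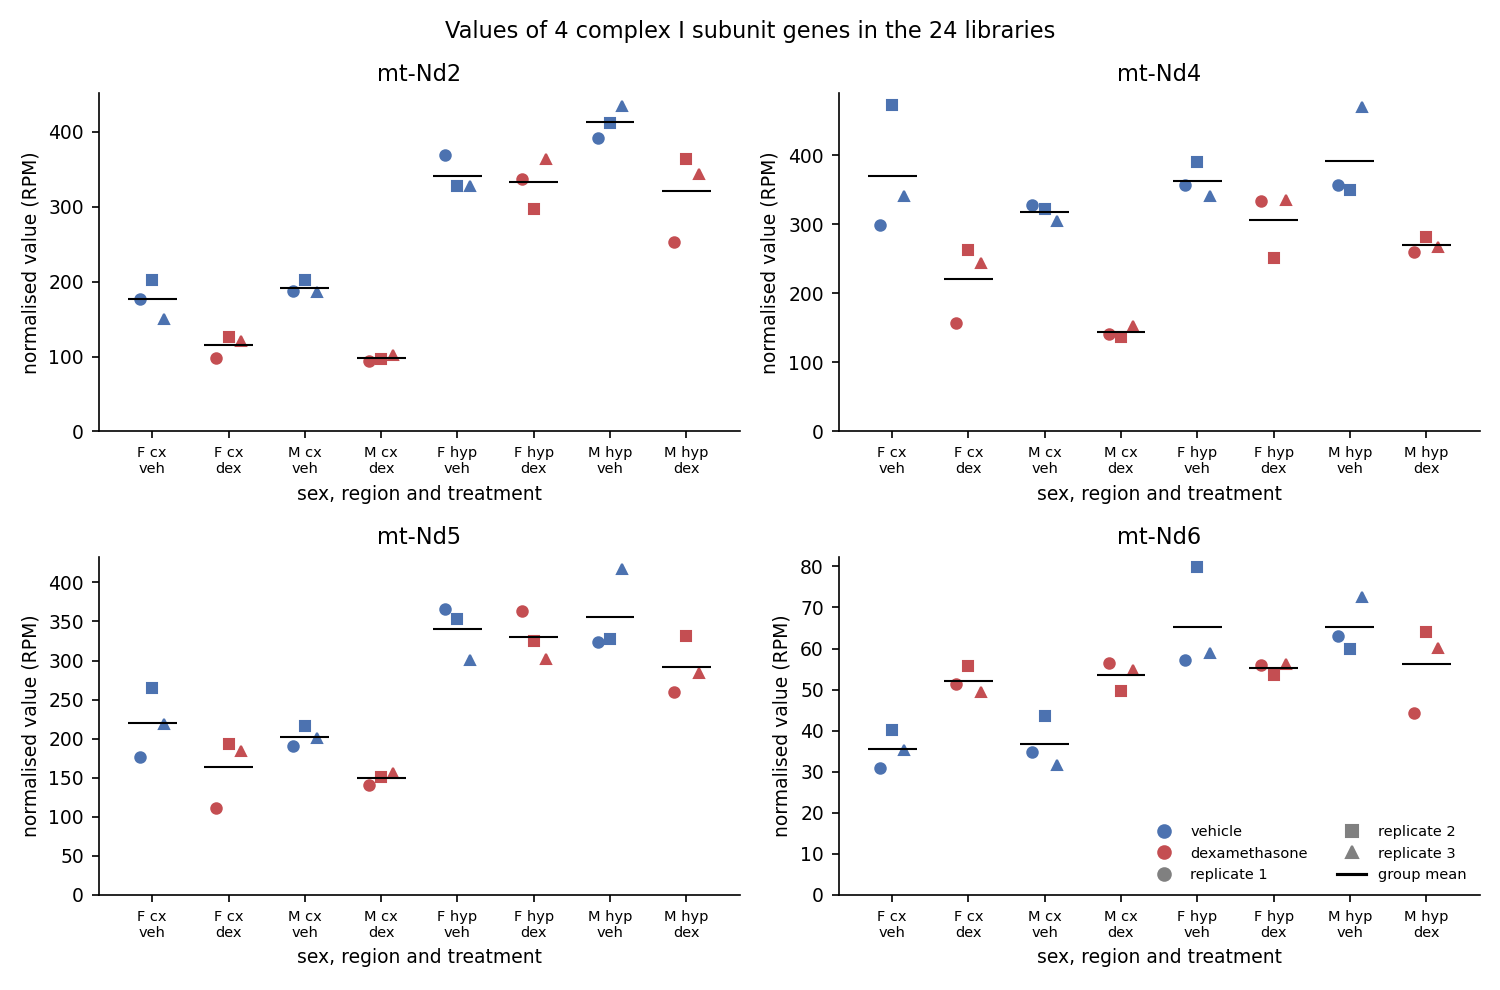
Normalised values (y axis, RPM, starting at 0) of mt-Nd2, mt-Nd4, mt-Nd5 and mt-Nd6 in the 24 libraries, by sex, region and treatment (F, female; M, male; cx, cortex; hyp, hypothalamus; veh, vehicle; dex, dexamethasone). Points are libraries, their shape the replicate number and the line the group mean. In cortex the dexamethasone libraries lie below vehicle for mt-Nd2 and mt-Nd4 and above vehicle for mt-Nd6 in both sexes.

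Female cortex showed the same genes at the ends of the range, with more spread. limma called 0 of the 16 genes that passed the filter, beside 4.42% of all 13314 genes tested, and 3 of them had an unadjusted p under 0.05, beside 21.4% of all genes; edgeR called 0, beside 3.87% of all genes, and DESeq2 called 2, mt-Nd2 and mt-Nd6, beside 9.72%. mt-Nd4 measured 299, 473 and 340 RPM with vehicle and 156, 263 and 244 RPM with dexamethasone, and mt-Nd2 went from 176, 202 and 151 to 98.3, 126 and 121 RPM. Neither gene's groups overlapped. The log2 changes were -0.75 ± 0.25 for mt-Nd4 (limma, adjusted p = 0.159) and -0.61 ± 0.15 for mt-Nd2 (adjusted p = 0.079). mt-Nd6 measured 30.8, 40.2 and 35.4 RPM with vehicle and 51.3, 55.8 and 49.5 RPM with dexamethasone, all above vehicle, with a log2 change of 0.55 ± 0.13 (adjusted p = 0.0677). The 2 groups were fully separate in 5 of the 16 genes, a share close to the 28.6% of all genes tested.

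In female cortex, libraries with the same number deviated together, although numbers 2 and 3 also did so across numbers (correlations of 0.492 and 0.459). With the replicate number as a block, limma called 6 of the 16 genes, a share close to the 38.1% of all genes tested, so the count does not set the mt genes apart. mt-Nd4 (adjusted p = 0.00055), mt-Nd2 (0.00196), mt-Nd5 (log2 change -0.45 ± 0.08, 0.00402), mt-Rnr1 (-0.48 ± 0.11, 0.00961) and mt-Rnr2 (-0.45 ± 0.13, 0.0239) were lower and mt-Nd6 (0.00135) higher in that fit. The complex IV genes were near 0 again, with log2 changes of -0.03 ± 0.27 for mt-Co1, 0.04 ± 0.17 for mt-Co2 and -0.10 ± 0.22 for mt-Co3. mt-Atp6, mt-Atp8, mt-Cytb, mt-Nd1 and mt-Nd3 lay between -0.21 and -0.04. In the authors' deposited table, mt-Nd2 (adjusted p = 0.0105) and mt-Nd4 (0.0145) were the mt genes under 0.05 in female cortex.

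Within the mt protein reads of male cortex, the makeup shifted accordingly. mt-Nd4 made up 1.49% ± 0.0469 (SD, n = 3) of these reads with vehicle and 0.783% ± 0.0475 with dexamethasone. mt-Nd2 went from 0.9% ± 0.0186 to 0.532% ± 0.0159, and mt-Nd6 from 0.171% ± 0.021 to 0.292% ± 0.0297. mt-Co1, at 34.8% ± 0.471 and 36.4% ± 0.773, and mt-Co2, at 11.7% ± 0.134 and 12.6% ± 0.149, took somewhat larger parts with dexamethasone. These percentages have a common sum, so a fall of one gene raises the others, and each is given without a test.

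Nuclear genes for mitochondrial RNA were read from a list of 65, of which 63 were in the tables and all 63 were tested. In male cortex 15 of them rose and 13 fell, where 26.7% and 20.9% of all genes did, and the median log2 change was 0.04, as over all genes. In female cortex 0 rose and 3 fell, where 4.42% of all genes were called, and in hypothalamus limma called 0 in either sex. Trmt10c, a subunit of the enzyme that cuts the 5′ end of mitochondrial tRNAs, fell in both sexes in cortex, from 59.4 to 36.6 RPM in male cortex (log2 change -0.69 ± 0.08, adjusted p = 6.54e-05) and from 51.2 to 31.5 RPM in female cortex (-0.68 ± 0.13, adjusted p = 0.0441). Yy1, a transcription factor that also acts on nuclear genes for mitochondria, fell likewise (log2 change -0.55 ± 0.05 and -0.58 ± 0.09). In hypothalamus Trmt10c measured 31.3 and 33.8 RPM in females and 33.6 and 36.0 RPM in males with vehicle and dexamethasone.

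The largest changes among list genes called in male cortex alone were those of Pprc1, a coactivator of nuclear genes for mitochondria (log2 change -1.16 ± 0.06), Mterfd3, a member of the mitochondrial transcription termination factor family (0.98 ± 0.12), and Mrm1, an rRNA methyltransferase (-0.60 ± 0.09). In female cortex their estimates were -1.44 ± 0.42, 0.74 ± 0.24 and -0.81 ± 0.23, with adjusted p of 0.115, 0.147 and 0.109. Lars2, the mitochondrial leucyl-tRNA synthetase, was called lower in both cortex comparisons, and in hypothalamus its entry took up to 4.79% of all reads.

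Cell type marker sums moved with treatment in cortex, some upward and some downward. The summed level of 6 oligodendrocyte lineage markers was 1335 to 1517 RPM in cortex vehicle libraries and 1740 to 2101 RPM with dexamethasone, and that of 5 neuronal markers 737 to 995 RPM and 1020 to 1374 RPM. Sums of 6 endothelial markers fell, from 4.79 to 5.71 RPM with vehicle to 2.93 to 3.01 RPM with dexamethasone in female cortex. In male cortex they were 6.03 to 7.40 RPM and 3.12 to 3.89 RPM. Contractile and mural sums also fell in both sexes without overlap. So did the low erythroid sums, from 0.563 to 1.40 RPM to 0.125 to 0.283 RPM in female cortex and from 1.15 to 1.63 RPM to 0.214 to 0.431 RPM in male cortex. Astrocyte sums rose in male cortex, from 254 to 302 RPM to 336 to 459 RPM. In female cortex they spread widely, at 155 to 1074 RPM with vehicle and 260 to 1404 RPM with dexamethasone. The progenitor sums of female cortex were 5986 to 6763 RPM and 5450 to 5763 RPM, and those of male cortex overlapped. In hypothalamus the oligodendrocyte lineage sums were 700 to 916 RPM and 706 to 971 RPM. The part of these markers in the mt results was not tested.

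In female hypothalamus, 3 minus-strand tRNAs had the largest differences, higher with dexamethasone and short of limma's threshold without a block. Of the 22 genes that passed the filter, 8 of them tRNAs, limma called 0, beside 0.841% of all 12491 genes tested; 4 had an unadjusted p under 0.05, beside 8.91% of all genes. edgeR called 0, beside 0.79% of all genes, and DESeq2 called 3, beside 1.98%. mt-Ty measured 31.6, 21.6 and 34 RPM with vehicle and 52.7, 51 and 52.3 RPM with dexamethasone. mt-Tc went from 25.6, 19 and 29 to 41.8, 38.9 and 41.2 RPM, and mt-Tn from 9.0, 7.22 and 11.9 to 21.1, 15.7 and 14.2 RPM. In all 3 of these tRNAs every dexamethasone library was above every vehicle library. limma gave log2 changes of 0.84 ± 0.17 (adjusted p = 0.096), 0.72 ± 0.15 (0.124) and 0.80 ± 0.21 (0.212).

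Same-number libraries of female hypothalamus also deviated together, and the blocked fit called these 3 genes (adjusted p = 0.00423 for mt-Ty, 0.00509 for mt-Tc and 0.024 for mt-Tn), beside 7.14% of all genes tested. DESeq2 called the same 3. mt-Tl1 (leucine), on the plus strand, had 3.79, 2.59 and 3.63 RPM with vehicle and 4.89, 5.33 and 4.84 RPM with dexamethasone, and was not called. mt-Ts1, the most abundant, measured 363, 342 and 255 RPM with vehicle and 441, 389 and 265 RPM with dexamethasone, with overlapping groups and a log2 change of 0.17 ± 0.21 (adjusted p = 0.835). mt-Ty was the mt gene under 0.05 in the authors' deposited table of female hypothalamus, with an adjusted p of 0.0175. Of the 22 genes, 6 had fully separate groups, beside 15.2% of all genes tested. Among them was mt-Nd4, at 356, 391 and 341 RPM with vehicle and 334, 251 and 335 RPM with dexamethasone (log2 change -0.25). mt-Nd2 was near level (log2 change -0.04), and mt-Rnr1 and mt-Rnr2 changed by -0.37 and 0.20.

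In male hypothalamus, mt-Nd4 and mt-Nd2 were again the lowest of the protein genes. limma called 0 of 22 tested genes, beside 0.226% of all 12403 genes tested, with 2 at an unadjusted p under 0.05, beside 7.74% of all genes; edgeR called 0, beside 0.182% of all genes, and DESeq2 called mt-Nd4 (adjusted p = 0.039), beside 1.51%. mt-Nd4 measured 357, 350 and 469 RPM with vehicle and 261, 281 and 268 RPM with dexamethasone, and mt-Nd2 391, 412 and 434 RPM and 253, 364 and 344 RPM. Neither pair of groups overlapped, and the log2 changes were -0.52 ± 0.12 (limma, adjusted p = 0.265) and -0.38 ± 0.14 (adjusted p = 0.588). Without replicate 2, whose libraries carried Xist, the estimates were -0.63 and -0.48 and 0 genes were called. Of the 22 genes, 4 had fully separate groups, beside 13.5% of all genes tested. Among them was mt-Rnr1 (log2 change -0.33), whereas mt-Rnr2 changed by 0.20 with overlapping groups.

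With the replicate number as a block, mt-Nd4 (adjusted p = 0.00332) and mt-Nd2 (0.0129) were called lower and mt-Ts1 higher (log2 change 0.27 ± 0.06, adjusted p = 0.0161) in male hypothalamus, beside 13.1% of all genes tested. mt-Ts1 was 301, 273 and 180 RPM with vehicle and 359, 308 and 237 RPM with dexamethasone, groups that overlapped although each pair rose. Without replicate 2 the blocked fit still called mt-Nd4 (log2 change -0.63 ± 0.10, adjusted p = 0.00613) and mt-Nd2 (-0.48 ± 0.09, 0.0191), called mt-Nd5 (-0.44 ± 0.09, 0.0245), and did not call mt-Ts1 (0.32 ± 0.08, 0.0661), beside 4.19% of all genes tested. mt-Nd6 did not rise in hypothalamus. It measured 57.3, 79.8 and 58.9 RPM with vehicle and 55.9, 53.7 and 56.4 RPM with dexamethasone in females, and 63.2, 59.9 and 72.5 against 44.3, 64.1 and 60.1 RPM in males (log2 change -0.22 ± 0.14 and -0.22 ± 0.15, adjusted p = 0.683 and 0.767), and the male estimate was -0.38 without replicate 2. The cytochrome oxidase genes had estimates between 0.00 and 0.18 in either sex of hypothalamus, none of them called.

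No mt gene was called for a difference between the sexes, in a test that called no gene of any kind. The sex-by-treatment term was called for 0 of 16 tested mt genes in cortex and 0 of 23 in hypothalamus, beside 0% of all genes tested in either region, by limma and by edgeR; at an unadjusted p under 0.05 there was 1 mt gene in cortex, mt-Nd2, and 1 in hypothalamus, mt-Tl1. These stand beside 1.24% and 0.257% of all genes at that level. The estimate for mt-Nd2 in cortex was -0.40 ± 0.15 (male minus female log2 change), and the absence of a call does not show that the sexes responded alike.

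Between regions, limma called a different response for 4 of the 24 mt genes tested, a share close to the 13.9% of all 13932 genes. The difference, hypothalamus minus cortex and averaged over the sexes, was 0.57 ± 0.13 for mt-Nd2 (limma, adjusted p = 0.00591), 0.55 ± 0.17 for mt-Nd4 (0.0418), -0.78 ± 0.15 for mt-Nd6 (0.00117) and 0.52 ± 0.16 for mt-Ty (0.0317). mt-Nd4 fell by more in cortex than in hypothalamus. mt-Nd2 fell in cortex, and in hypothalamus its estimate was -0.38 in males and near 0 in females (-0.04). For mt-Nd6 the estimates were positive in cortex and negative in hypothalamus. The 3 complex I genes were also called by edgeR, which called 11.4% of all genes; without replicate 1, 2 or 3 of each group the calls numbered 2, 1 and 0, with estimates of 0.51 to 0.62 for mt-Nd2, 0.42 to 0.68 for mt-Nd4 and -0.88 to -0.69 for mt-Nd6. limma's mt-Ty call rests on a gene near 0 in cortex: it had at most 5 reads in any cortex library, and its edgeR estimate was 0.21 (adjusted p = 0.93). The interaction for mt-Rnr2 was 0.74 ± 0.36 (adjusted p = 0.196). With the replicate number as a block, 13 of the 24 were called, beside 38.9% of all genes, mt-Rnr2 among them (adjusted p = 0.00214), although the numbers paired libraries in 3 of the 4 tables and not in male cortex.

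Without dexamethasone, the largest contrast between the regions was in rRNA and tRNA. In vehicle libraries, mt rRNA took 2.33% ± 0.368 of the reads in cortex and 33.5% ± 5.95 in hypothalamus, a difference of 31.2 percentage points (SD, n = 6 each; exact permutation p = 0.005, the smallest that these sets of 3 within each sex allow). tRNA genes took 6.98 ± 1.30 and 396 ± 46.3 reads per 1000000 reads in genes (exact permutation p = 0.005). In these vehicle libraries rRNA reads numbered 0.925 to 1.10 for each protein-gene read in cortex and 13.1 to 17.8 in hypothalamus, and mt-Rnr2 outnumbered mt-Rnr1 by 8.61 to 10.9 times in cortex and 8.28 to 18.8 times in hypothalamus. Without replicate 2 of each group the differences were 30.1 percentage points for rRNA and 382.1 reads per 1000000 for tRNA (exact permutation p = 0.0556 each, the smallest then possible). The labels name no batch that crosses the regions, so region and library making cannot be told apart. Gm26924 and Lars2, the nuclear entries treated here as rRNA-like, were also higher in hypothalamus. Gm26924 took 0.0548% to 0.0939% of reads in cortex and 0.0889% to 5.87% in hypothalamus, ranges that overlapped. Lars2 took 0.00317% to 0.0113% and 0.0728% to 4.79%, and the part of these entries in the mt results was not tested. Summed contractile and mural markers were at 4.53 to 12.1 RPM in cortex and 26.9 to 77.4 RPM in hypothalamus, and oligodendrocyte lineage markers at 1335 to 2101 and 700 to 971 RPM, over both treatments, and the part of these was not tested either.

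The protein share differed in sign with the denominator. It was 2.28% ± 0.280 in cortex and 2.08% ± 0.171 in hypothalamus of all reads in genes (exact permutation p = 0.185), but 0.917 percentage points higher in hypothalamus once mt-Rnr1, mt-Rnr2, Gm26924 and Lars2 were taken out of the totals (exact permutation p = 0.01). In the fit across genes, values were scaled with TMM over the 12 vehicle libraries, and limma called 21 of 23 tested mt genes higher in hypothalamus, beside 28.4% of all 13627 genes called higher. Among the 23, mt-Ts1, mt-Ty, mt-Tc, mt-Tn, mt-Te, mt-Tl1 and mt-Tg passed the filter through hypothalamus alone. None of these tRNA genes exceeded 0.301 RPM in any cortex vehicle library, so the filter fixed their direction and their part of the count tests nothing. On this scale 11 of 12 protein genes were higher, with a median log2 difference of 0.82 against 0.01 over all genes, whereas per 1000000 reads in genes mt-Co1, mt-Co2, mt-Co3 and mt-Atp8 were lower in hypothalamus (ratios 0.715, 0.78, 0.879 and 0.926). Without replicate 2 of each group, 19 of the 23 were called, and the log2 differences were 1.74 for mt-Nd2, 1.52 for mt-Nd6, 4.54 for mt-Rnr2 and 8.26 for mt-Ts1.

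**Figure D4:**
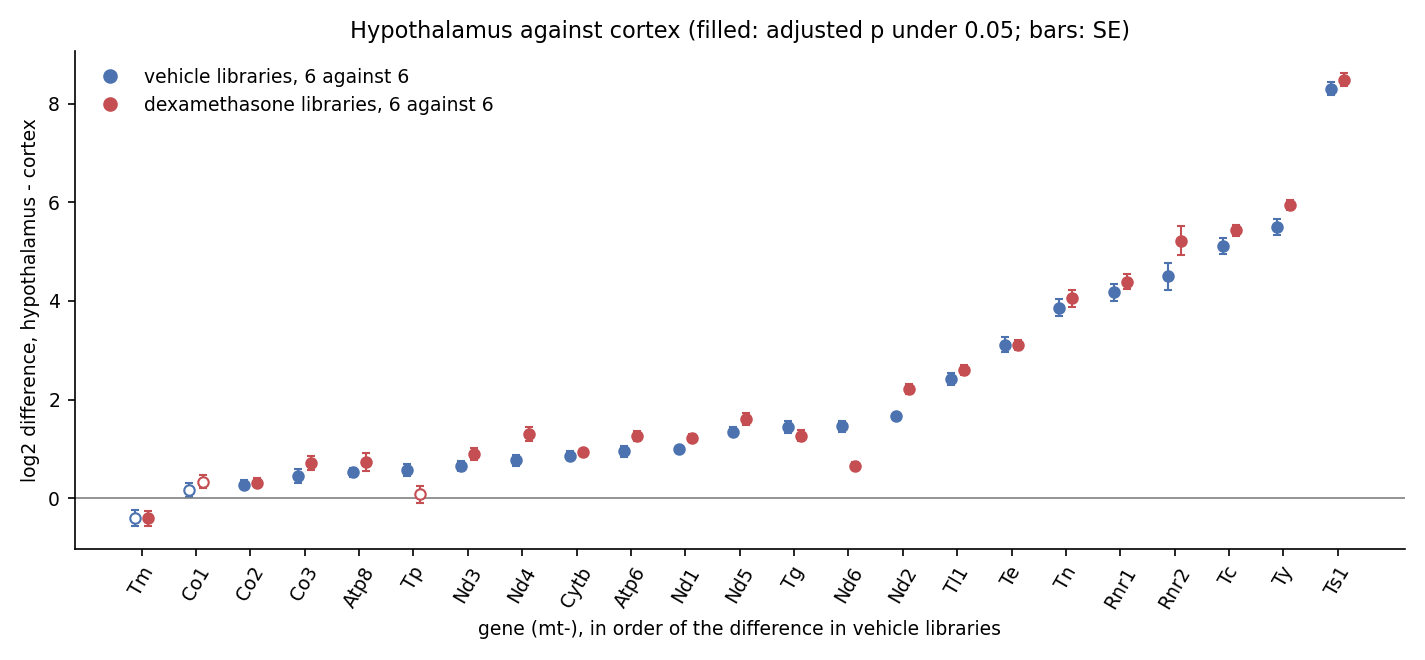
Log2 difference between hypothalamus and cortex (y axis; limma estimate and SE on TMM-scaled values plus 1) of the mt genes that passed the filter, in the order of the difference in vehicle libraries (x axis), for 6 against 6 vehicle and 6 against 6 dexamethasone libraries. Filled points had an adjusted p under 0.05. Among protein genes mt-Co1 and mt-Co2 lie nearest to 0 with either treatment and mt-Nd2 and mt-Nd5 furthest above it with dexamethasone; with vehicle mt-Nd6 stands between these. The rRNAs and the tRNAs mt-Tn, mt-Tc, mt-Ty and mt-Ts1 lie far above the protein genes.

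Among protein genes, 3 of complex I stood furthest above cortex. The log2 difference in vehicle libraries was 1.66 ± 0.07 for mt-Nd2 (limma, adjusted p = 3.77e-09), 1.46 ± 0.11 for mt-Nd6 and 1.35 ± 0.10 for mt-Nd5. On the TMM scale mt-Nd2 ranged from 121 to 167 RPM, with a median of 155, in 6 cortex libraries and from 420 to 561 RPM, with a median of 483, in 6 hypothalamus libraries. mt-Nd6 ranged from 25.8 to 36.1 RPM (median 28.6) and from 73.6 to 103 RPM (median 77.6). Neither gene's regions overlapped. mt-Nd1 (1.00 ± 0.07), mt-Atp6 (0.95 ± 0.11), mt-Cytb (0.86 ± 0.09), mt-Nd4 (0.78 ± 0.11), mt-Nd3 (0.66 ± 0.10) and mt-Atp8 (0.53 ± 0.10) were called at smaller differences. Of complex IV, mt-Co3 (0.45 ± 0.14) and mt-Co2 (0.28 ± 0.09) were called and mt-Co1 was not (0.16 ± 0.14, adjusted p = 0.335).

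In the dexamethasone libraries, where 54.4% of all genes were called between regions, mt-Nd6 stood 0.66 ± 0.08 higher in hypothalamus, mt-Nd4 1.30 ± 0.13 and mt-Nd2 2.21 ± 0.10. These are the 3 complex I genes of the region-by-treatment call. For the rRNAs, the vehicle libraries gave 4.18 ± 0.17 for mt-Rnr1 and 4.50 ± 0.27 for mt-Rnr2. mt-Rnr2 ranged from 13685 to 21450 RPM on the TMM scale in cortex and from 260846 to 487743 RPM in hypothalamus, and mt-Rnr1 from 1562 to 1968 and from 24673 to 53496 RPM, again with no overlap. The nuclear entry Gm20594, which shares 1.04% of the windows of mt-Rnr2, had 0 to 3 reads per cortex library and 204 to 439 per hypothalamus library.

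The tRNA difference came from a few genes. mt-Ts1 had 0 to 8 reads in every cortex library and 4604 to 10101 in every hypothalamus library, where it made up 61.8% to 84.2% of all mt tRNA reads. Summed over the 6 vehicle libraries, 18 cortex reads stood against 37962 hypothalamus reads, a depth-corrected ratio of 1740 (exact 95% counting interval 1101 to 2936, covering counting error only). Set against its neighbour, mt-Ts1 reads came to 4.09% to 5.91% of the mt-Co1 reads in hypothalamus and to at most 0.00404% in cortex.

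The cluster between mt-Nd2 and mt-Co1 was split. mt-Ty (8 against 5065 reads, ratio 522), mt-Tc (25 against 4366, ratio 144) and mt-Tn (16 against 1666, ratio 85.9) were high in hypothalamus, whereas their neighbour mt-Ta, on the same strand, had 20 against 84 reads (ratio 3.47). mt-Te had 25 against 988 reads (ratio 32.6). The other minus-strand tRNA genes, mt-Tp (220 against 310, ratio 1.16, interval 0.975 to 1.39) and mt-Tq (42 against 96, ratio 1.89), differed much less by ratio of reads. These ratios are per reads in genes, of which mt rRNA took more in hypothalamus. On the TMM scale mt-Tp ranged from 1.04 to 2.00 RPM in cortex and from 2.06 to 3.68 RPM in hypothalamus. mt-Tq ranged from 0.220 to 0.429 RPM and from 0.479 to 1.57 RPM. By edgeR both were called higher in hypothalamus (log2 difference 0.84 for mt-Tp and 1.49 for mt-Tq, adjusted p = 0.00309 and 0.00198). On values plus 1, limma gave log2 differences of 8.30 ± 0.13 for mt-Ts1, 5.49 ± 0.16 for mt-Ty, 5.12 ± 0.17 for mt-Tc, 3.87 ± 0.16 for mt-Tn, 3.11 ± 0.15 for mt-Te and 0.58 ± 0.13 for mt-Tp. These understate the change of genes near 0. The edgeR estimates, from a fit that called 56.7% of all genes, were 11.36 for mt-Ts1 and 9.51 for mt-Ty.

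**Figure D5:**
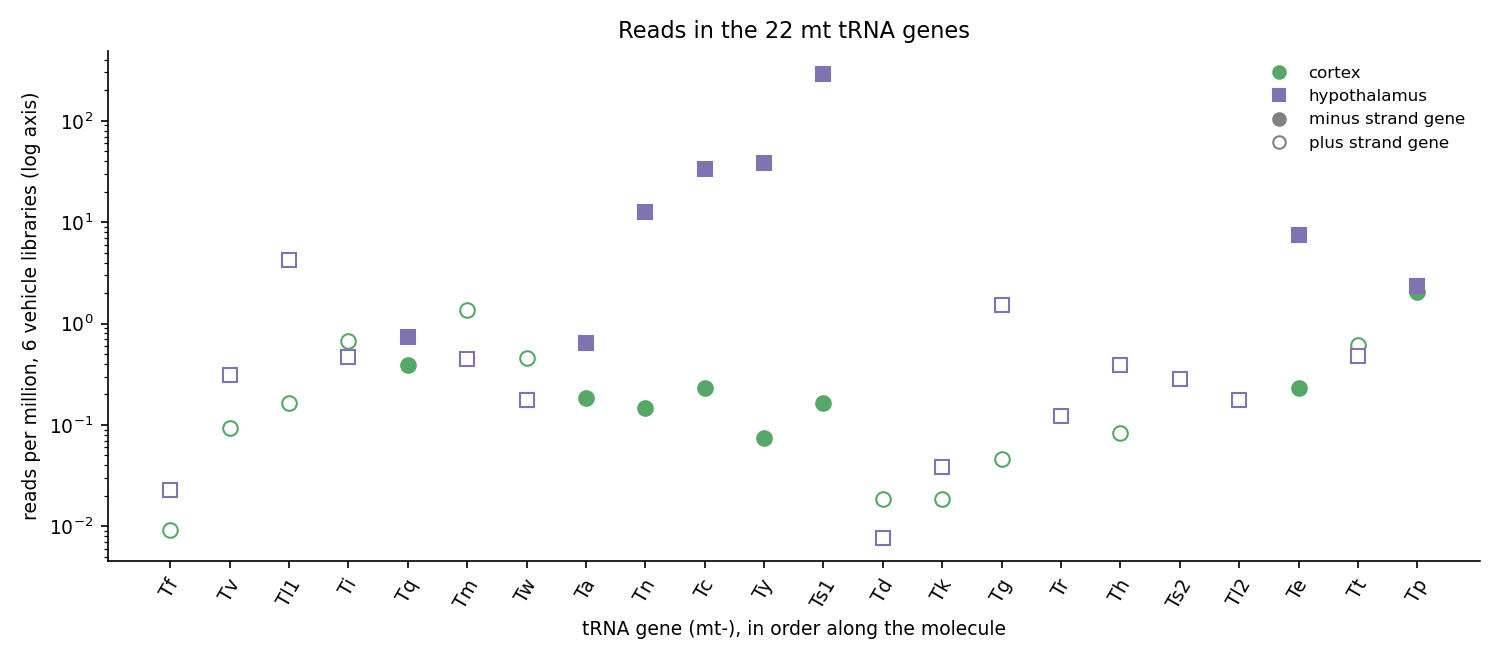
Reads per 1000000 reads in genes (y axis, logarithmic), summed over the 6 vehicle libraries of each region, for the 22 mt tRNA genes in their order on the molecule (x axis). Circles are cortex and squares hypothalamus, filled for genes of the minus strand; mt-Tr, mt-Ts2 and mt-Tl2 had 0 reads in cortex and are not drawn there. mt-Ts1, mt-Ty, mt-Tc and mt-Tn stand highest in hypothalamus, and mt-Tp is near equal in the 2 regions on this scale, though not on the TMM scale.

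Plus-strand tRNAs remained scarce in both regions. The 8 minus-strand tRNA genes supplied 97.8% of the mt tRNA reads of the hypothalamus vehicle libraries and 49.4% of those of cortex, where all 22 genes together had 757 reads. Of the 14 plus-strand genes, mt-Tl1, which adjoins mt-Rnr2, had 552 reads in hypothalamus and 18 in cortex (ratio 25.3), and mt-Tg had 200 and 5 (ratio 33.0). mt-Tm was lower in hypothalamus per reads in genes (58 against 147 reads, ratio 0.326, interval 0.236 to 0.444), although limma did not call it (log2 difference -0.40 ± 0.17, adjusted p = 0.0596). By edgeR it was called lower (log2 difference -0.96, adjusted p = 0.0488), where 56.7% of all genes were called. On the TMM scale its ranges overlapped, at 0.362 to 1.89 RPM in cortex and 0.178 to 0.821 RPM in hypothalamus. For mt-Ts2, mt-Tl2 and mt-Tr, with 0 reads in cortex vehicle libraries, 3 reads over the 6 libraries were taken as the floor. Against it mt-Ts2 was 10.2-fold higher in hypothalamus on 37 reads, mt-Tl2 6.33-fold on 23 and mt-Tr 4.4-fold on 16. The hypothalamus reads were taken as exact, so these folds are not strict lower bounds. Over all 12 cortex libraries mt-Tr had 6 reads.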

How the data were processed

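RNA sequencing of 24 samples was analysed from 4 deposited tables, 1 for each region and sex. Per the submitters' processing notes, TopHat2 (versions 2.0.13 and 2.0.9), HTSeq and GRCm38 were used. Each sample ran on 2 lanes, held as 1 column. The authors deposited a normalised signal per sample, reads per 1000000 of a scaled library size, given here as RPM. They also deposited a ratio (per the file headers an edgeR fold change), its log2 and p-values with their adjustment. Read length, annotation, strand setting and the handling of reads with several placements are not given in the sources used here. Within 0.01 read, 100% of the deposited values were whole reads, and the recovered reads gave the depths and shares. Of 38924 entries per table, 4 that shared names were left out. All per-sample columns were used.

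limma 3.58.1 (R 4.3.3; trend, Benjamini-Hochberg over all genes tested) was run on log2(value + 1) of genes with at least 1 RPM in at least 3 libraries. It was fitted separately in each table for the treatment comparisons, and on TMM-scaled values across tables for the regions and interactions. A fold on this scale understates the change of low genes. edgeR 4.0.16, run on the recovered reads as a count test, called 555 genes in female cortex, 6315 in male cortex, 110 in female hypothalamus and 25 in male hypothalamus. DESeq2 1.42.0 was a further alternative. Shares of reads were compared by exact two-sided permutation within sex (400 assignments). The limma, edgeR and DESeq2 fits were also run on simulated counts. These held changes in well-covered genes only and no deviations shared by replicate number. They cannot speak to the low tRNA genes or to a gain from the replicate block. Windows of 50 bases were compared among GENCODE M21 transcripts, a length chosen after seeing the data. Intervals and floors cover counting error only, since the labels name no molecular identifiers.

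Replicate numbers were taken as pairs where the deviations of same-numbered libraries from their group means correlated above 0.1 in all 3 pairs. This held in female cortex (0.494 to 0.872), female hypothalamus (0.607 to 0.752) and male hypothalamus (0.655 to 0.765), and not in male cortex (0.0208 to 0.391). In female cortex the unlike numbers 2 and 3 correlated nearly as well (0.492 and 0.459), so this rule did not set those numbers apart there. All mt protein and rRNA genes were named for the treatment comparisons of cortex and for the regions under vehicle. For the treatment comparisons of hypothalamus only some of them were named. A tRNA gene was named where called, or where it was among the 3 highest or the 3 most changed. Nuclear list genes were named where called in 2 comparisons, or for the 3 largest changes among those called in 1. mt-Ta, mt-Tq, mt-Te and other tRNAs of the region comparison were named after their values were seen. The members and gene lists were chosen with earlier results of these data known. The alternatives tried were another pseudocount, no filter, rRNA-like entries out of the totals, edgeR, DESeq2, the replicate block and leaving out each replicate.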

Additional observations from a re-analysis of the deposited data

Results flagged for a closer look

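For 4 mt genes the dexamethasone response differed between hypothalamus and cortex by the region-by-treatment term of limma (log2 response in hypothalamus minus that in cortex). Of all genes tested, 13.9% were called by this term. The difference was 0.57 ± 0.13 for mt-Nd2 (SE; adjusted p = 0.00591), 0.55 ± 0.17 for mt-Nd4 (0.0418), -0.78 ± 0.15 for mt-Nd6 (0.00117) and 0.52 ± 0.16 for mt-Ty (0.0317). mt-Ty had 0 to 5 reads per cortex library, and its difference passed neither with edgeR (0.21, adjusted p = 0.93) nor with a pseudocount of 0.25 (0.44, adjusted p = 0.158).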

How the results depend on the processing

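The protein share of hypothalamus (dexamethasone minus vehicle) was 0.0568 percentage points outside the rRNA-like entries and -0.0864 to 0.0200 with 1 replicate left out; the protein share between regions was 0.917 outside those entries and 0.052 in dexamethasone libraries. Without 1 replicate, the rRNA share changed by -0.795 to -0.72 in cortex and differed by 28.8 to 34.7 between regions, and the tRNA difference per 1000000 reads was 2.35 to 2.84 in cortex, 54.3 to 68 in hypothalamus and 374.3 to 412.2 between regions. With a pair left out no p can fall below 0.0556. With the replicate block, the cortex tRNA difference was 2.56 (exact sign-flip p = 0.0625); outside the rRNA-like entries that of hypothalamus was 113.6.

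Female cortex had 2 mt genes called with DESeq2, 6 with the replicate block, 7 with the block and without rRNA-like entries, and 0 to 2 with 1 replicate left out (2 without replicate 1). Female hypothalamus had 3 with each of these first 3 settings, and male hypothalamus 1, 3 and 3, and 3 with the block and without replicate 2, an alternative chosen after seeing the data. The region-by-treatment count was 2 without the filter, 13 with the block (38.9% of all genes were called there) and 0 to 2 with 1 replicate left out. The cause was not tested.

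Small log2 changes reversed. In female cortex mt-Tm was -0.0078 with edgeR and -0.022 without rRNA-like entries. In female hypothalamus mt-Nd1 was -0.019 without those entries, and in male hypothalamus mt-Co2 was 0.00085 with edgeR. Leaving out 1 replicate gave, in female cortex, -0.23 to 0.041 for mt-Atp8, -0.071 to 0.047 for mt-Co1, -0.049 to 0.16 for mt-Co2, -0.094 to 0.057 for mt-Nd3 and -0.067 to 0.047 for mt-Tm. In female hypothalamus it gave -0.034 to 0.18 for mt-Atp8, -0.11 to 0.026 for mt-Cytb, -0.13 to 0.012 for mt-Nd2, -0.065 to 0.00099 for mt-Nd5 and -0.69 to 0.084 for mt-Rnr1. In male hypothalamus it gave -0.17 to 0.064 for mt-Atp6, -0.44 to 0.34 for mt-Atp8 and -0.047 to 0.043 for mt-Co2, and between regions -0.023 to 0.28 for mt-Co1. Depth limits the cortex tRNAs most, at 99 to 213 reads per library for all 22 genes.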
